A study of Mus musculus with 14 samples.

Results

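Jup, Plcg1, Id1, Id2, Pou4f1, Rassf2 and Ubash3b are 7 genes that earlier work on t(8;21) acute myeloid leukaemia named as targets of its fusion protein. They were taken by symbol from the 54532 gene lines of a count table, and each symbol matched 1 line. Of the 7 genes, 6 had enough counts to be tested, and Pou4f1 did not. The fusion, AML1-ETO, joins the DNA-binding part of the transcription factor RUNX1 to most of the corepressor-binding protein RUNX1T1.

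RNA was sequenced from 14 bulk samples of bone marrow cells of C57BL/6 mice, sorted as LT-HSC or GMP. LT-HSC are the blood stem cells with long-term repopulating capacity, and GMP are myeloid progenitors that give rise to granulocytes and monocytes. The 4 groups were AML1-ETO LT-HSC (genotype Runx1-Runx1t1, 3 libraries), AML1-ETO GMP (3 libraries), control LT-HSC (wild type, 4 libraries) and control GMP (4 libraries). Poly(I:C), an interferon inducer, is listed for all 14 samples, controls included, as 4 intraperitoneal doses of 5 mg/kg on alternate days. It switches on Mx1-Cre, a recombinase under an interferon-responsive promoter that acts in blood and in other interferon-responsive tissues, and this induces the fusion. The labels do not say whether control mice carried Cre, nor whether the libraries of a group are from separate mice. The p-values therefore measure only how much these libraries vary, which may be technical.

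AML1-ETO binds DNA at RUNX sites and recruits corepressors and histone deacetylases, and at other sites it recruits activators. Human t(8;21) blasts are arrested early in myeloid maturation, carry high POU4F1, and are reported to express plakoglobin, the product of JUP, and to depend on phospholipase C gamma 1, the product of PLCG1. RASSF2 is reported as silenced by the fusion in human t(8;21) cells, and UBASH3B as raised. ID1 and ID2 encode proteins that hold blood progenitors back from differentiation by binding E proteins.

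The promoters of the 3 genes that were higher in AML1-ETO LT-HSC libraries are printed here, since they were searched for the RUNX core. They are the 250 bases before the gene's start in RefSeq on GRCm38.p6. They lie at chr11:100397791-100398040 on the minus strand (Jup), chr2:160731060-160731309 on the plus strand (Plcg1) and chr2:132030325-132030574 on the minus strand (Rassf2), each written 5′ to 3′ in the direction of its gene. Capitals mark the letters TGTGG, the core shared by RUNX sites, or their reverse complement CCACA.
Jup: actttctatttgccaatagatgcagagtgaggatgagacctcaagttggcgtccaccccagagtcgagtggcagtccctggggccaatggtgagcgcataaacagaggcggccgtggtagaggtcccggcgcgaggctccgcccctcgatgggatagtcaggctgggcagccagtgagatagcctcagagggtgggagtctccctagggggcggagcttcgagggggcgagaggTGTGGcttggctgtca
Plcg1: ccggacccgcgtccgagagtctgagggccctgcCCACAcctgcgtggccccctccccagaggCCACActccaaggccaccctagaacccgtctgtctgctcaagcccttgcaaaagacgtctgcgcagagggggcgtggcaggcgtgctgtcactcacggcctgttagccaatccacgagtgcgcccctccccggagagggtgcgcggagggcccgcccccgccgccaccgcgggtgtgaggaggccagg
Rassf2: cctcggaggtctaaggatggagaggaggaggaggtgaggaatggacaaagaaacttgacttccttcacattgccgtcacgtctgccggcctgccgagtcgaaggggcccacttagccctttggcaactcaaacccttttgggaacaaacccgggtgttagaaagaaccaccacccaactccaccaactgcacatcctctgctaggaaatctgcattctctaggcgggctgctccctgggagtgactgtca
The core occurred 1 time in the Jup window, 2 times in the Plcg1 window and not in the Rassf2 window. Searched on both strands, TGTGG was in 49.3% of all 32851 promoter windows of that length. The full RUNX site TGTGGT, which contains TGTGG, was in 14% of all windows and in 0 of the 7 windows of the 6 members that matched the table (Id1 had no entry and Ubash3b had a pair of starts). The variant TGCGGT was in 5.10% of all windows and the AP-1 site TGANTCA in 6.75%, and neither was in a window of these genes. A match is a run of letters, not a bound site, and the windows leave out distant elements.

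The libraries held 13210952 to 19403864 counts. Levels are in CPM, counts scaled to a common library size after TMM scaling over all 14 libraries. Runx1t1, which supplies the second part of the fusion, had 85.5, 164 and 125 CPM in AML1-ETO LT-HSC libraries, against 3.95, 0, 18.1 and 11.1 CPM in control LT-HSC libraries. It had 26.0, 26.3 and 45.6 CPM in AML1-ETO GMP libraries, against 2.62, 2.31, 1.69 and 2.73 CPM in control GMP libraries, so the genotype labels held in every library. Reads of the fusion's Runx1 part fall on Runx1 and cannot be told from those of the native gene.

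The sort labels were read against marker genes, summed in CPM per library. The 9 LT-HSC markers, such as Procr and Hlf, came to 29.9 to 251 CPM in AML1-ETO GMP libraries and 23.5 to 28.4 CPM in control GMP libraries, and to 772 to 983 CPM in AML1-ETO LT-HSC and 348 to 1380 CPM in control LT-HSC libraries. The 8 GMP markers, such as Mpo and Elane, came to 21114 to 34820 CPM in AML1-ETO GMP, 28385 to 32474 CPM in control GMP, 777 to 1012 CPM in AML1-ETO LT-HSC and 130 to 339 CPM in control LT-HSC libraries. The cell types were thus apart on both lists, but the markers also differed by genotype. In LT-HSC, 2 of 9 LT-HSC markers fell with AML1-ETO, and of 8 GMP markers 4 rose and 1 fell. Cd34, Cd48 and Flt3, which LT-HSC carry at low levels, rose there too, with values of Cd34 and Cd48 given below. In GMP, 3 of 8 tested LT-HSC markers rose and 1 of 8 GMP markers fell. The 7 mast cell and basophil markers reached 8484 to 11165 CPM in AML1-ETO LT-HSC libraries, against 11.1 to 65.7 CPM in control LT-HSC libraries, where Fcer1a and Mcpt4 were at 0, and all 7 rose. In GMP they reached 827 to 1554 CPM with AML1-ETO, against 154 to 211 CPM in controls, where Tpsb2 and Mcpt4 were at 0, and 5 of 6 tested rose. The 8 B and plasma cell markers were at 109 to 643 CPM in AML1-ETO LT-HSC libraries, against 12928 to 76447 CPM in control LT-HSC libraries, where replicate 2 was the highest and none of the markers was at 0. Erythroid markers were at 25.3 to 106 CPM in AML1-ETO LT-HSC libraries, against 369 to 1494 CPM in controls, and 4 of 7 fell. T and NK cell markers were at 3.91 to 14.9 CPM with AML1-ETO, against 108 to 711 CPM in controls, where Cd3e was at 0, and 3 of 5 tested fell. In GMP, neutrophil, erythroid, megakaryocyte, T and NK cell, and endothelial and stromal markers were higher in all 3 AML1-ETO libraries than in any control. Neutrophil markers were at 3170, 355 and 580 CPM, against 42.1 to 57.9 CPM in control GMP libraries, and 3 of 5 tested rose. Erythroid markers were at 4301, 52.5 and 1261 CPM, against 7.22 to 13.4 CPM (2 of 7 rose), and megakaryocyte markers at 244, 175 and 1993 CPM, against 86.9 to 118 CPM (1 of 5 tested rose). T and NK cell markers were at 36.1, 10.6 and 25.5 CPM, against 3.61 to 6.68 CPM (1 of 2 tested rose). Endothelial and stromal markers were at 55.3, 2.42 and 57.6 CPM, against 0.484 to 0.872 CPM, and the 1 tested rose. Replicate 1 was thus highest on the neutrophil, erythroid and T and NK cell lists, and replicate 3 on the megakaryocyte and endothelial lists. B and plasma cell markers overlapped in GMP, at 43.0 to 437 CPM with AML1-ETO and 155 to 185 CPM in controls. Macrophage and dendritic markers reached 1740 CPM in AML1-ETO GMP replicate 1 and overlapped otherwise, at 213 to 1740 CPM with AML1-ETO and 226 to 287 CPM in controls, and 3 of 5 tested rose. The part of these cell types in the results below was not tested, and in bulk samples fewer cells of a type and less RNA per cell cannot be told apart.

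In LT-HSC, AML1-ETO libraries carried more Plcg1, Rassf2 and Jup RNA than controls, by 4.26-fold, 3.20-fold and 4.97-fold. Of the 6 tested genes, these 3 were called higher at an adjusted p under 0.05 in edgeR's quasi-likelihood test with Benjamini-Hochberg adjustment over 14589 genes, and none was called lower. Over all genes tested, 7.59% were called higher and 4.69% lower, and the median log2 fold change was 0.03. Id1, Id2 and Ubash3b were not called. In GMP, 3 of the 6 were again called higher, but they were Jup, Id1 and Id2, by 5.02-fold, 5.38-fold and 6.34-fold. There 5.47% of 13981 genes were called higher and 3.96% lower, with a median of -0.03. Jup was thus the gene of the 7 that was called higher in both cell types, although its LT-HSC call was lost in some fits given below. The share of all genes called higher in both cell types is not given here, so whether this is unusual cannot be judged. Plcg1 and Rassf2 had AML1-ETO effects that differed between the cell types in a direct test. For Id1 and Id2, called in GMP only, that test called no difference (adjusted edgeR p of 0.674 and 0.655).

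**Figure D1:**
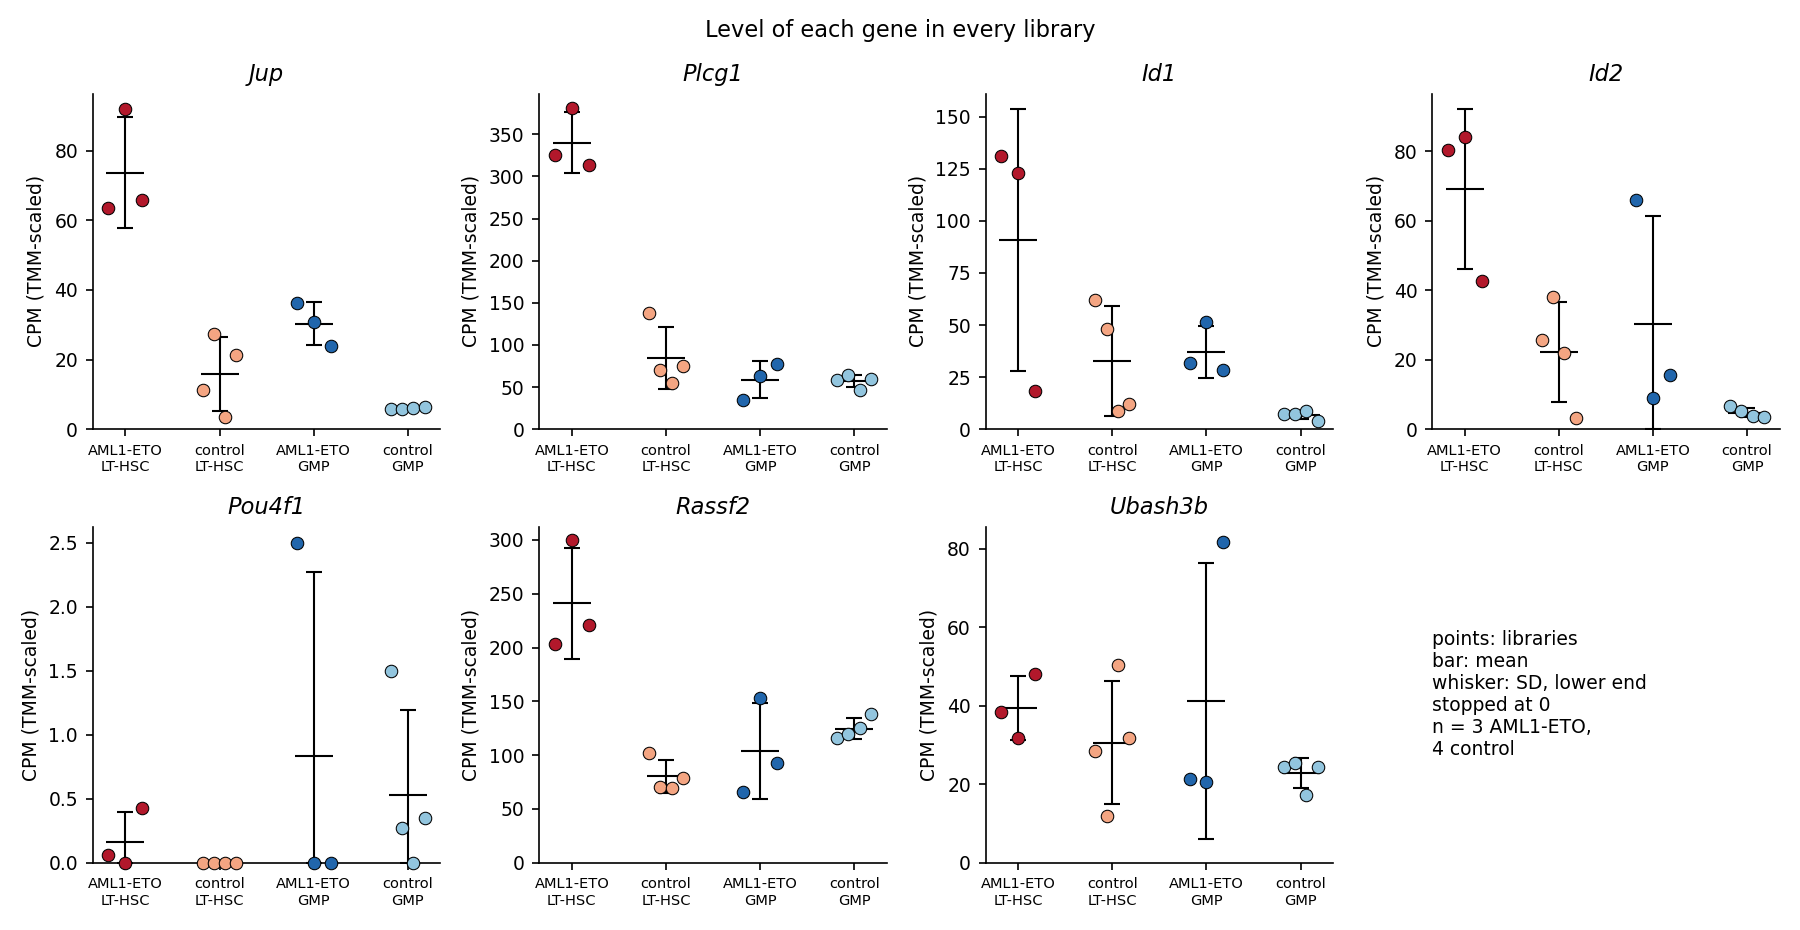
Each panel shows the CPM of 1 gene in every library (points) with the group mean (bar) and SD (whisker, stopped at 0), the AML1-ETO group left of its control for each cell type. Plcg1 and Rassf2 stand high in the 3 AML1-ETO LT-HSC libraries alone, whereas Jup stands above control in both cell types.

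Plcg1 encodes phospholipase C gamma 1, the enzyme that cleaves a membrane phospholipid into inositol trisphosphate, which releases calcium, and diacylglycerol, which activates protein kinase C. The gene lies on chromosome 2 at 160731300 to 160775760 on the plus strand of mm10. It had 325, 381 and 314 CPM in AML1-ETO LT-HSC libraries, against 138, 70.7, 54.4 and 74.7 CPM in control LT-HSC libraries. The lowest AML1-ETO library was above the highest control library, as was the case for 15.6% of all genes tested. The log2 fold change was 2.09 ± 0.32 (SE, n = 3 and 4), with an adjusted p of 0.00626 in edgeR's quasi-likelihood test, and the call was kept when any of the 7 libraries was left out.

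In GMP, Plcg1 had 35, 63.4 and 77.7 CPM in AML1-ETO libraries, against 58.4, 64.0, 46.6 and 59.4 CPM in control libraries. The groups overlapped, and the log2 fold change was 0.06 ± 0.26 with an adjusted edgeR p of 0.922. The AML1-ETO effect in GMP minus that in LT-HSC was -1.96 ± 0.42 on the log2 scale, with an adjusted edgeR p of 0.0142 in 1 fit of all 14 libraries. Across 16116 genes, 2.91% were called lower for this difference and 3.43% higher. Exons of Plcg1 share 379 bases (4.82% of its exon bases) with Zhx3 and 248 bases (3.16%) with Gm27206 on the opposite strand. Zhx3 held 3130 counts and Gm27206 held 83 counts over all 14 libraries, and the strand setting of the counting is not given in the sources used here.

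Rassf2 encodes a scaffold with a Ras-association domain that binds and stabilises the MST kinases of the Hippo pathway, and it is counted among tumour suppressors. It lies on chromosome 2 at 131989415 to 132030258 on the minus strand. It had 203, 300 and 221 CPM in AML1-ETO LT-HSC libraries, against 102, 70.6, 69.2 and 79.1 CPM in control LT-HSC libraries. The groups did not overlap, and the log2 fold change was 1.68 ± 0.22 with an adjusted edgeR p of 0.00366, kept when any 1 library was left out. It was thus higher with the fusion in these LT-HSC libraries, where the reports on human t(8;21) cells describe silencing.

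In GMP, Rassf2 had 65.7, 153 and 92.8 CPM in AML1-ETO libraries, against 116, 120, 125 and 138 CPM in control libraries. The overlap came from AML1-ETO replicate 2, which was above every control, while the other AML1-ETO libraries were below them all. The log2 fold change was -0.25 ± 0.25 with an adjusted edgeR p of 0.620. Without AML1-ETO GMP replicate 2 it was -0.64 with an adjusted p of 0.0286, so that library decided the call in GMP. The difference between the cell types was -1.85 ± 0.35 on the log2 scale, with an adjusted edgeR p of 0.00710, and it was called in the same direction when any of the 14 libraries was left out.

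Jup encodes plakoglobin, or gamma-catenin, which links cadherins to the cytoskeleton in desmosomes and adherens junctions and is a close relative of beta-catenin. It lies on chromosome 11 at 100368958 to 100397763 on the minus strand. It had 63.4, 92 and 65.8 CPM in AML1-ETO LT-HSC libraries, against 11.3, 27.3, 3.53 and 21.2 CPM in control LT-HSC libraries. The groups were apart, although the control libraries spread widely. AML1-ETO against control gave a log2 fold change of 2.31 ± 0.58, with an adjusted edgeR p of 0.0371. The call was lost without AML1-ETO LT-HSC replicate 1 (adjusted p = 0.110), 2 (0.147) or 3 (0.111) and without control LT-HSC replicate 1 (0.0757) or 4 (0.0637).

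In GMP, Jup had 36.2, 30.8 and 24.0 CPM in AML1-ETO libraries, against 5.88, 5.92, 6.17 and 6.51 CPM in control libraries. The control libraries were nearly alike, and the AML1-ETO libraries were all above them, as was the case for 10.6% of genes tested in GMP. The log2 fold change was 2.33 ± 0.22 with an adjusted edgeR p of 0.00293, called whichever of the 7 libraries was left out. The difference of the effects between the cell types was 0.10 ± 0.66 on the log2 scale, with an adjusted edgeR p of 0.987, and its SE leaves room for a difference in either direction.

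Id1 and Id2 encode inhibitor-of-DNA-binding proteins, helix-loop-helix proteins without a DNA-binding region that pair with E proteins and keep them off DNA. Id1 lies on chromosome 2 at 152736251 to 152737410 on the plus strand. It had 31.7, 51.5 and 28.5 CPM in AML1-ETO GMP libraries, against 7.49, 7.42, 8.89 and 4.19 CPM in control GMP libraries. The groups were well apart, and the log2 fold change was 2.43 ± 0.32 with an adjusted edgeR p of 0.00844. The call was kept when any of the 7 libraries was left out, but not when all 14 libraries shared 1 fit (adjusted p = 0.0786). In LT-HSC, Id1 had 131, 123 and 18.4 CPM in AML1-ETO libraries, against 62.0, 47.9, 8.75 and 12.2 CPM in control libraries. AML1-ETO replicate 3 fell among the controls, and the log2 fold change of 1.56 ± 0.81 had an adjusted edgeR p of 0.283.

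Id2 lies on chromosome 12 at 25093799 to 25097140 on the minus strand. It had 65.8, 9.09 and 15.7 CPM in AML1-ETO GMP libraries, against 6.58, 5.11, 3.89 and 3.66 CPM in control GMP libraries. Replicate 1, the library with the high erythroid, neutrophil and macrophage markers, was the highest, and the other AML1-ETO libraries still lay above all controls. The log2 fold change was 2.66 ± 0.64 with an adjusted edgeR p of 0.0390, and 1.37 without AML1-ETO GMP replicate 1, where the call was kept. The call was lost, among other fits, when control GMP replicate 1 (adjusted p = 0.107), 2 (0.114), 3 (0.140) or 4 (0.135) was left out, without the filter on low counts (0.0511) and in the fit of all 14 libraries (0.0632). In LT-HSC, Id2 had 80.3, 84.1 and 42.6 CPM in AML1-ETO libraries, against 25.7, 38.0, 21.9 and 3.19 CPM in control libraries. These groups did not overlap, yet the log2 fold change of 1.73 ± 0.65 had an adjusted edgeR p of 0.128. The difference of the effects between the cell types was 0.95 ± 0.95 for Id1 and 1.02 ± 0.98 for Id2 on the log2 scale (adjusted edgeR p of 0.674 and 0.655).

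**Figure D2:**
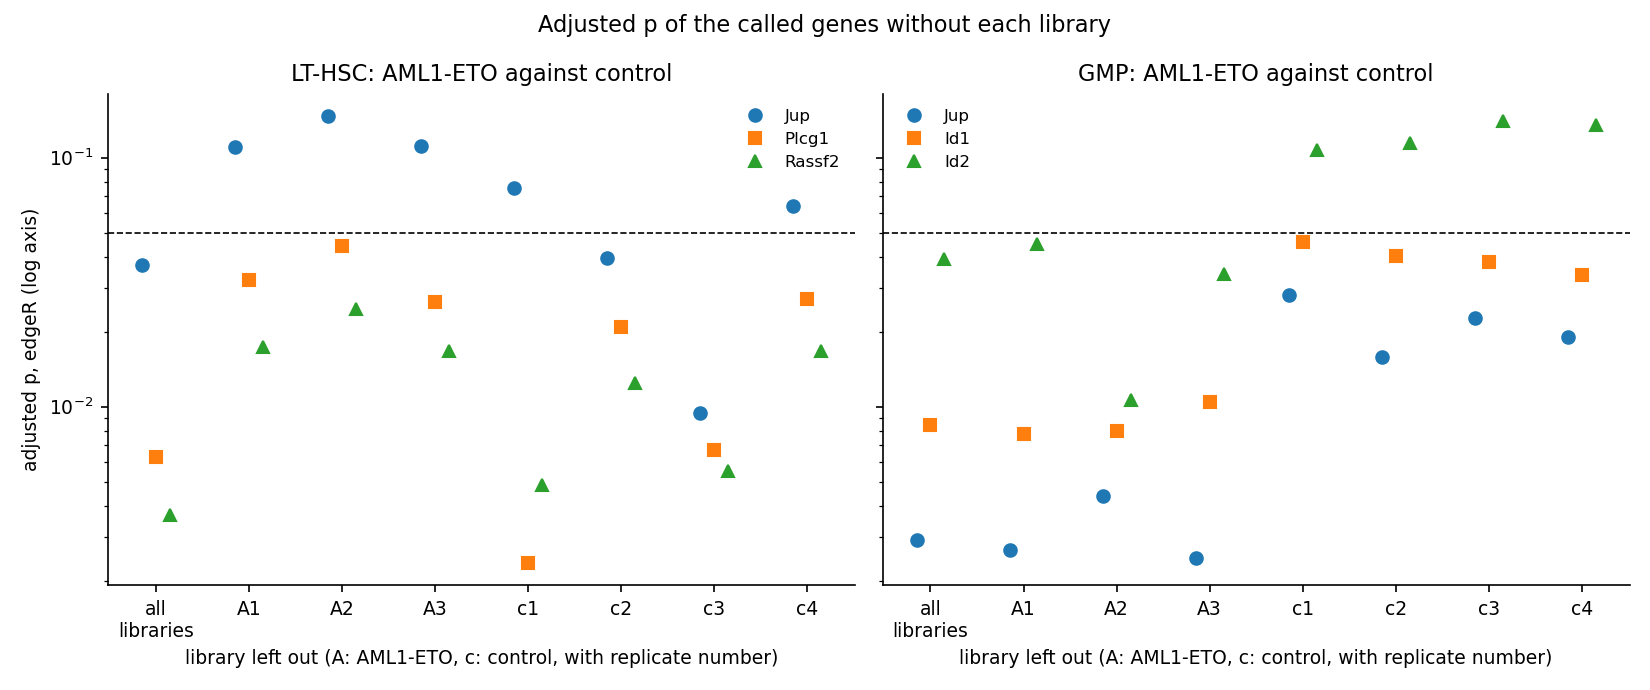
Adjusted p (log axis) of the 3 genes called in LT-HSC (left) and the 3 called in GMP (right), with all libraries and with each AML1-ETO (A) or control (c) library left out, the dashed line at 0.05. Plcg1 and Rassf2 in LT-HSC and Jup and Id1 in GMP stay under the line in every fit, whereas Jup in LT-HSC reaches 0.147 and Id2 in GMP 0.140.

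The 9 immediate early genes, such as Fos and Egr1, which cells switch on within minutes of signalling or handling, moved beside these genes. Their summed level was 6726 to 11944 CPM in AML1-ETO GMP libraries, against 2598 to 4762 CPM in control GMP libraries, and all 9 rose. In LT-HSC it was 48040, 38036 and 22058 CPM with AML1-ETO, against 17540, 17769, 7352 and 10601 CPM in controls, and 5 of 9 rose. Replicate 3 was the lowest there in both genotypes, as it was for Id1. In AML1-ETO GMP libraries replicate 3 had the highest sum, at 11944 CPM, but the lowest Id1. None of the 9 was at 0 in any group, and their part in the changes of Id1, Id2 and the other genes was not tested.

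Ubash3b encodes a phosphatase, also called TULA-2, that binds the ubiquitin ligase CBL and dephosphorylates SYK-type tyrosine kinases. It lies on chromosome 9 at 41011098 to 41161697 on the minus strand. It had 38.4, 31.8 and 48.1 CPM in AML1-ETO LT-HSC libraries, against 28.4, 12, 50.4 and 31.7 CPM in control LT-HSC libraries. It had 21.3, 20.7 and 81.8 CPM in AML1-ETO GMP libraries, against 24.4, 25.4, 17.3 and 24.4 CPM in control GMP libraries. The groups overlapped in both cell types, and the high GMP value was that of replicate 3, the library with the most megakaryocyte markers. The log2 fold changes were 0.46 ± 0.44 in LT-HSC and 0.87 ± 0.48 in GMP, with adjusted edgeR p-values of 0.612 and 0.322. Without AML1-ETO GMP replicate 3 the GMP value was -0.12. The difference between the cell types was 0.49 ± 0.69 (adjusted edgeR p of 0.797), and -0.48 without that library.

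Pou4f1 encodes a POU-homeodomain transcription factor of sensory neurons. It lies on chromosome 14 at 104461676 to 104467999 on the minus strand. It had 1, 0 and 7 counts in AML1-ETO LT-HSC libraries, against 0 counts in every control LT-HSC library. It had 38, 0 and 0 counts in AML1-ETO GMP libraries, against 28, 5, 0 and 6 counts in control GMP libraries. A count of 0 allows a level of up to 0.16 to 0.23 CPM per library, from 3 counts and for counting error only. The largest values, 2.50 CPM in AML1-ETO GMP replicate 1 and 1.5 CPM in control GMP replicate 1, stood in both genotypes. The gene did not pass the filter on low counts, so no test was made.

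**Figure D3:**
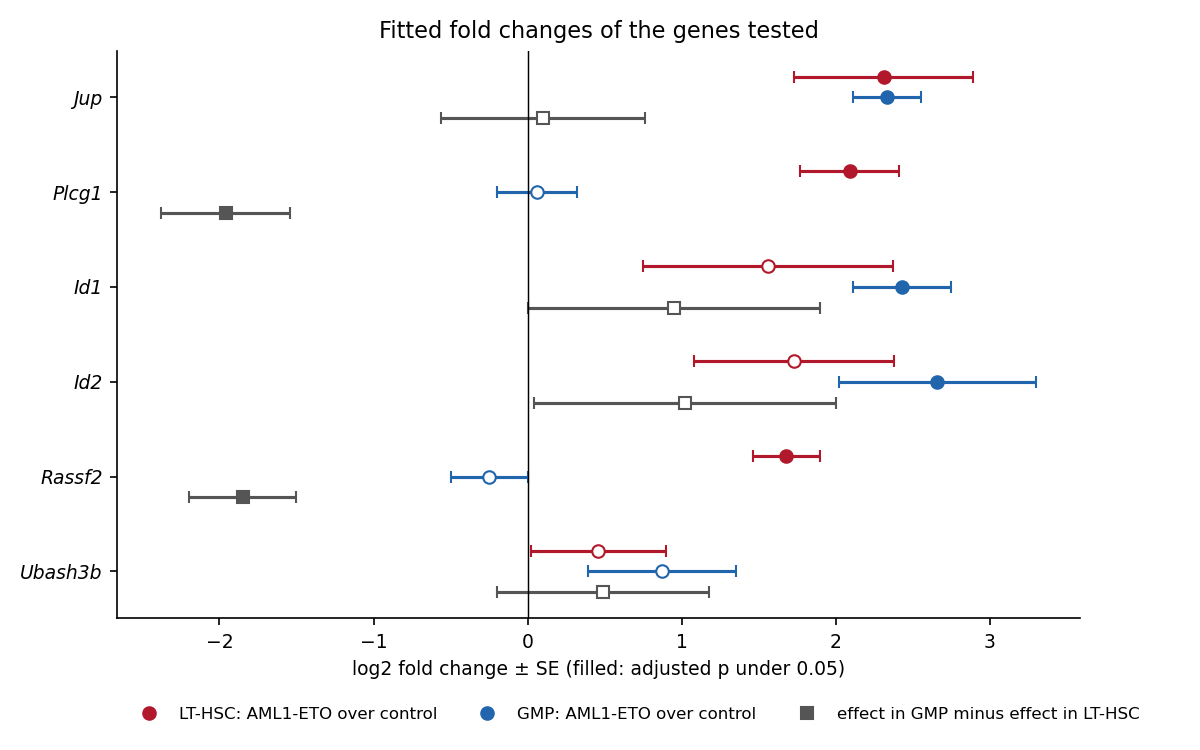
Log2 fold changes (± SE) of the 6 tested genes for AML1-ETO over control in LT-HSC (red) and GMP (blue) and for the effect in GMP minus that in LT-HSC (grey squares), filled where the adjusted p was under 0.05. Plcg1 and Rassf2 have filled squares, at -1.96 and -1.85, and the other 4 genes have open ones.

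Between the cell types of control mice, Id1, Id2 and Jup were lower in GMP than in LT-HSC. The log2 fold changes of control GMP against control LT-HSC were -2.23 ± 0.65 for Id1, -2.21 ± 0.67 for Id2 and -1.38 ± 0.45 for Jup, with adjusted edgeR p-values of 0.0225, 0.0274 and 0.0368. These 3 of 6 compare with 10.6% of 16116 genes called lower and 13.9% called higher. The values of the control groups overlapped for each of the 3. All 3 calls lay near the threshold, and each was lost in some of the fits with 1 library left out. The Id1 call was lost without control LT-HSC replicate 1 (adjusted p = 0.0725) or without control GMP replicate 1 (0.0551), 2 (0.0538) or 4 (0.0688). The Id2 call was lost without control LT-HSC replicate 1 (0.0523) or 2 (0.0680) or control GMP replicate 2 (0.0629), 3 (0.0763) or 4 (0.0763). The Jup call was lost without control LT-HSC replicate 2 (0.106) or 4 (0.0820) or control GMP replicate 1 (0.0857), 2 (0.0818), 3 (0.0821) or 4 (0.0750), or when the control libraries were fitted alone (0.109). Rassf2 averaged 125 ± 9.66 CPM in control GMP and 80.1 ± 15 CPM in control LT-HSC libraries. Every control GMP value was above every control LT-HSC value, and the share of all genes for which this held is not given here. Its log2 fold change of 0.63 ± 0.23 had an adjusted edgeR p of 0.0552. That p was 0.0369 without control LT-HSC replicate 1 and 0.0259 when the control libraries were fitted alone.

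With AML1-ETO, the genes that were lower in GMP than in LT-HSC were Plcg1 and Rassf2, where 9.15% of genes were called lower and 12.6% higher. The log2 fold change of AML1-ETO GMP against AML1-ETO LT-HSC was -2.53 ± 0.33 for Plcg1 and -1.22 ± 0.26 for Rassf2, with adjusted edgeR p-values of 0.000127 and 0.00438. For Jup it was -1.28 ± 0.51 with an adjusted p of 0.0861, although every GMP library was below every LT-HSC library, as was the case for 20.7% of genes, and the AML1-ETO libraries fitted alone gave an adjusted p of 0.0114. Id2 had -1.19 ± 0.74 and an adjusted p of 0.288. Leaving out AML1-ETO GMP replicate 1 gave -2.46 and an adjusted p of 0.0443. These comparisons use the same libraries as those of genotype, so they are other views of the same values.

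Ordered by mean level, Jup ran AML1-ETO LT-HSC, AML1-ETO GMP, control LT-HSC, control GMP (73.7 ± 15.9, 30.3 ± 6.08, 15.8 ± 10.5 and 6.12 ± 0.290 CPM, SD, n = 3, 3, 4 and 4), and the libraries of the first 2 groups did not overlap. Id1 and Id2 had the same order, with every pair of neighbours overlapping. Plcg1 was at 340 ± 36.4 CPM in AML1-ETO LT-HSC, 84.4 ± 36.7 CPM in control LT-HSC, 58.7 ± 21.7 CPM in AML1-ETO GMP and 57.1 ± 7.42 CPM in control GMP, and neighbours after the first overlapped. Rassf2 was at 241 ± 51.7 CPM in AML1-ETO LT-HSC, 125 ± 9.66 CPM in control GMP, 104 ± 44.4 CPM in AML1-ETO GMP and 80.1 ± 15 CPM in control LT-HSC, with overlap among neighbours after the first. Per kilobase of exon, which allows genes to be compared, Id1 had the highest mean of the 7 in AML1-ETO LT-HSC at 78.3 ± 54.2 CPM per kb and Pou4f1 the lowest at 0.0348 ± 0.0496 CPM per kb (SD, n = 3). Plcg1 came next at 43.3 ± 4.63 CPM per kb, and the rank of Id1 did not hold in replicate 3, its low library. In control GMP, Rassf2 had the highest mean at 10.4 ± 0.806 CPM per kb and Pou4f1 the lowest at 0.113 ± 0.142 CPM per kb, with Jup at 0.951 ± 0.0451 CPM per kb (SD, n = 4).

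The genes whose profile over the 14 libraries was most like that of each member were found among 13745 genes whose mean count was 20 or more, by the root mean square difference of log2 CPM after centring each gene. For Plcg1 they were Sigirr at 0.299 and Ssh3 at 0.323, where the median over all genes was 1.41. For Rassf2 they were Tbc1d9b at 0.234 and 6530402F18Rik at 0.247 (median 0.993), and for Jup they were Hebp1 at 0.511 and Il2rg at 0.559 (median 1.71). For Id1 they were Sertad1 at 0.560 and Klf6 at 0.619 (median 1.79), for Id2 H2-K2 at 0.620 and Ahnak at 0.642 (median 1.91), and for Ubash3b Prkar2b at 0.288 and Cep70 at 0.343 (median 1.03). These genes were picked as the nearest, so values under the medians were fixed by the choice. Around its own mean, each member varied by a root mean square of 1.07 (Plcg1), 0.643 (Rassf2), 1.46 (Jup), 1.53 (Id1), 1.64 (Id2) and 0.672 (Ubash3b). Among the members, Plcg1 and Rassf2 were the closest pair, at 0.698, and Id2 and Ubash3b the farthest, at 1.66. The measure also depends on how much each gene varied, and 0.698 was above the 0.643 of Rassf2 around its own mean. The closest pair is thus not shown to share a profile.

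Lists of related genes were set beside the members, described by counts of calls and medians. Many of their calls were lost when 1 library was left out, and counts of calls over all genes also moved, as given at the end. Of 33 list genes called in LT-HSC, 6 were called whichever of the 7 libraries was left out (Cd34, Csf3r, Flt3, Hhex, Lat2 and Lcp2). Of 16 called in GMP, Runx1t1 alone was, and it is a part of the fusion. In GMP most losses came when a control library was left out. The phospholipase C gamma pathway had calls in both cell types. In LT-HSC, 10 of its 30 tested genes rose and 1 fell, with a median log2 fold change of 0.68 against 0.03 for all genes. With 1 library left out, 1 to 11 rose, the lowest count without AML1-ETO LT-HSC replicate 2. Lcp2, an adaptor that recruits phospholipase C gamma, averaged 217 ± 21.5 CPM in AML1-ETO LT-HSC libraries, against 90.3 ± 16.9 CPM in control LT-HSC libraries (log2 1.35 ± 0.20, adjusted edgeR p of 0.00523). Lat, the membrane adaptor it works with, averaged 192 ± 3.01 CPM, against 58.6 ± 25.4 CPM in controls (1.81 ± 0.30, adjusted edgeR p of 0.00852). Prkcq, a protein kinase C, and Itpr3, an inositol trisphosphate receptor that releases calcium, rose as well. Nfatc2, a calcium-dependent transcription factor, fell to 6.70 ± 2.10 CPM in AML1-ETO LT-HSC libraries, against 32.0 ± 13.9 CPM in controls (-2.17 ± 0.49, adjusted edgeR p of 0.0256).

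In GMP, 9 of 29 tested genes of that pathway rose and none fell, with a median of 0.38 against -0.03 for all genes, although Plcg1 itself was not called there. Without an AML1-ETO GMP library 11 to 13 rose, and without a control GMP library 0 to 2. Camk2d, a calmodulin-dependent kinase, averaged 35.5 ± 12.3 CPM in AML1-ETO GMP libraries, against 8.25 ± 2.03 CPM in control GMP libraries (2.12 ± 0.32, adjusted edgeR p of 0.0116). Lat averaged 55.5 ± 52.1 CPM, against 3.97 ± 0.770 CPM in controls (3.82 ± 0.58, adjusted edgeR p of 0.0123). AML1-ETO GMP replicate 3, the library with the most megakaryocyte markers, was the highest for Lat, and without it the mean was 25.4 CPM and the log2 fold change 2.69 ± 0.26 (adjusted edgeR p of 0.00624). Prkcq averaged 63.7 ± 77.3 CPM with AML1-ETO, against 2.15 ± 0.773 CPM in controls (4.90 ± 0.83, adjusted edgeR p of 0.0171), and 19.1 CPM without that library, where the log2 fold change was 3.15 ± 0.37 (0.00865). Rasgrp4, a diacylglycerol-responsive activator of Ras known in mast cells, was also among the 4 with the smallest p. Plcg2, Lat, Lcp2 and Prkcq rose in both cell types, without a share over all genes to set beside them. Mast cells express several of these genes, and the mast cell markers rose in the same comparisons. The part of mast cells and of megakaryocytes in these changes was not tested.

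Of the UBASH3, CBL and kinase list, 6 of 10 tested genes rose in LT-HSC and none was called lower, with a median of 1.0 (2 to 6 rose with 1 library left out, the lowest without AML1-ETO LT-HSC replicate 2). Csf3r, the G-CSF receptor, averaged 464 ± 54.1 CPM in AML1-ETO LT-HSC libraries, against 55.3 ± 31.9 CPM in controls (3.15 ± 0.48, adjusted edgeR p of 0.00630), and Flt3, Sh3kbp1, Cblb, Ubash3a and Kit rose too. In GMP, 1 of 9 rose, Jak2, and 2 fell, with a median of -0.19, and none of the 3 calls was kept when any 1 control GMP library was left out. Kit and Ubash3a were the 2 of 9 genes tested in both cell types that had opposite calls. No share of all genes with opposite calls is given here. Kit, the stem cell factor receptor, averaged 237 ± 34.4 CPM in AML1-ETO GMP libraries, against 340 ± 20.8 CPM in control GMP libraries (-0.50 ± 0.12, adjusted edgeR p of 0.0342). Ubash3a, the relative of Ubash3b, averaged 49.1 ± 3.91 CPM, against 70.4 ± 5.48 CPM in controls (-0.50 ± 0.12, adjusted edgeR p of 0.0405). The difference between cell types was called for Ubash3a (-3.14 ± 0.60, adjusted edgeR p of 0.00812), Kit (-1.22 ± 0.23, adjusted edgeR p of 0.00727), Csf3r and Sh3kbp1.

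**Figure D4:**
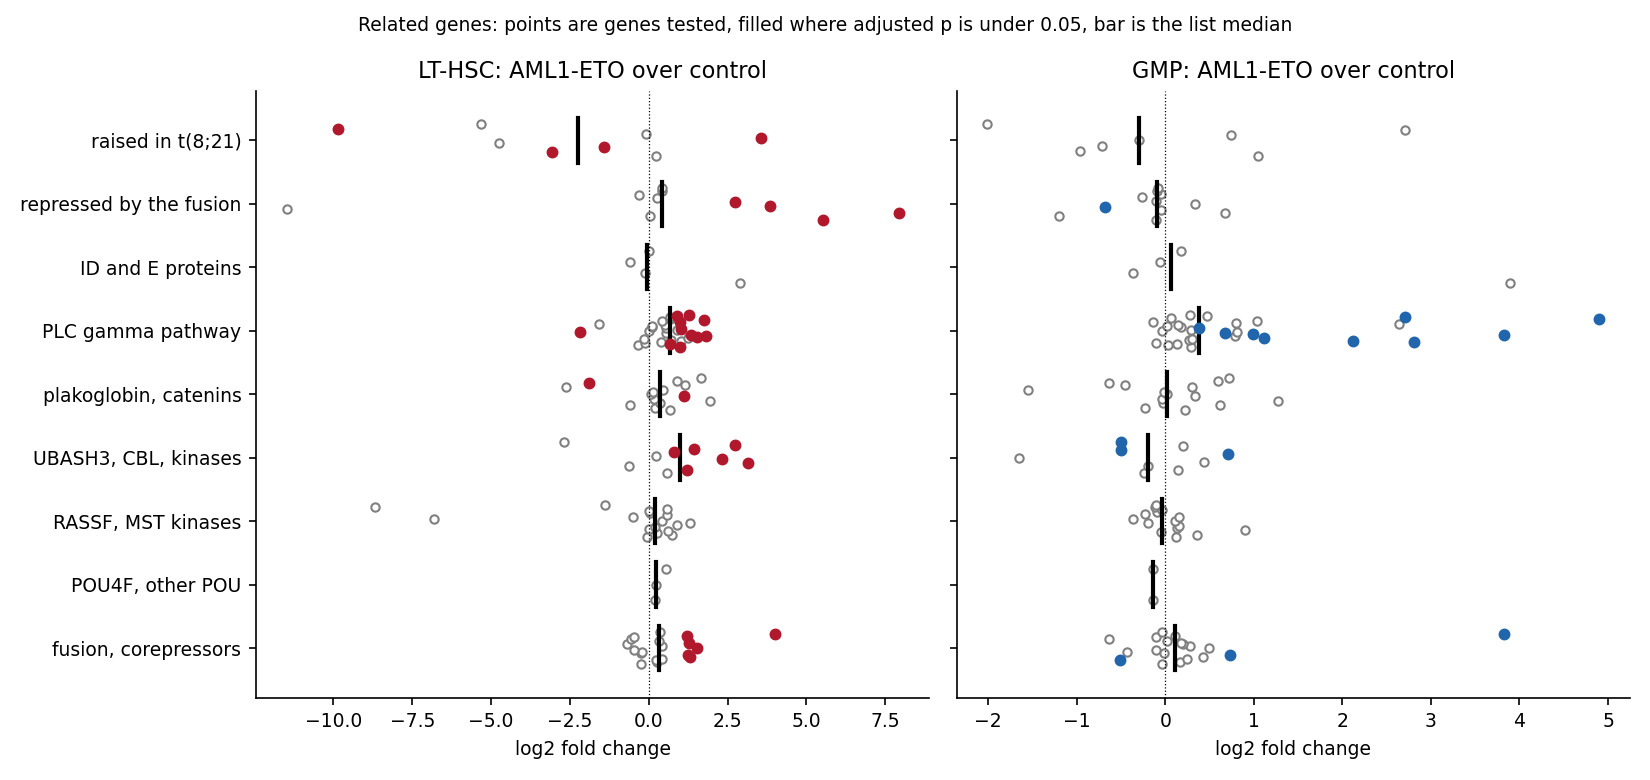
Log2 fold changes of the tested genes of each related list in LT-HSC and in GMP (points, filled where the adjusted p was under 0.05), with the list median as a bar and a scale of its own for each cell type. The phospholipase C gamma list has a median of 0.68 in LT-HSC and 0.38 in GMP, and the UBASH3 list of 1.0 and -0.19.

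Among 19 genes of the fusion parts and corepressor list, 6 rose in LT-HSC (1 to 6 with 1 library left out, the lowest without AML1-ETO LT-HSC replicate 2) and none was called lower, with a median of 0.33. Hhex, a homeobox regulator of early blood cells, averaged 224 ± 28.2 CPM in AML1-ETO LT-HSC libraries, against 82.6 ± 22.8 CPM in controls (1.53 ± 0.23, adjusted edgeR p of 0.00626). Lyl1, Runx1, Erg, Fli1 and Runx1t1 rose too. Runx1 and Runx1t1 receive reads of the fusion itself, so their calls are not separate from the genotype. In GMP, Runx1t1 and Fli1 rose and Cbfb, the partner that stabilises RUNX1 on DNA, fell to 147 ± 17.2 CPM in AML1-ETO GMP libraries, against 212 ± 15.7 CPM in controls (-0.51 ± 0.11, adjusted edgeR p of 0.0301), with a median of 0.11.

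Other genes reported as raised in human t(8;21) leukaemia did not rise together. In LT-HSC, 1 of 8 tested rose and 3 fell, with a median of -2.24 (0 to 3 fell with 1 library left out, the lowest without AML1-ETO LT-HSC replicate 1). Cd34, a stem and progenitor surface protein, averaged 482 ± 90.2 CPM in AML1-ETO LT-HSC libraries, against 43.9 ± 12.3 CPM in controls (3.55 ± 0.27, adjusted edgeR p of 0.000594). Bcl2, which blocks cell death, averaged 14 ± 7.86 CPM, against 126 ± 74.7 CPM in controls, and Ccnd2, a cyclin, 72.9 ± 32.8 CPM against 206 ± 45.2 CPM. Igfbp7 had 0 counts in all AML1-ETO LT-HSC libraries and 7.75 ± 3.30 CPM in controls. Bcl2 is also expressed by B cells, whose markers were far lower in AML1-ETO LT-HSC libraries, and their part was not tested. In GMP, 0 of 7 tested were called by edgeR, 3 had an unadjusted p under 0.05 and DESeq2 called 2, with a median of -0.30. Without AML1-ETO GMP replicate 2, edgeR called 2 higher and 3 lower.

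Of genes reported as repressed by the fusion, 4 of 10 tested rose in LT-HSC and none was called lower by edgeR, with a median of 0.42 (1 to 4 rose with 1 library left out, the lowest without AML1-ETO LT-HSC replicate 2). DESeq2 called 4, of which 3 were higher (Lat2, Mpo and Cebpe) and Elane, the neutrophil elastase gene, was lower. Elane had 0 counts in every AML1-ETO LT-HSC library, against 23.5 ± 20.7 CPM in controls, and its adjusted edgeR p was 0.0529. Lat2, an adaptor of mast and B cells, averaged 237 ± 25.6 CPM in AML1-ETO LT-HSC libraries, against 17.7 ± 5.70 CPM in controls (3.84 ± 0.27, adjusted edgeR p of 0.000502). Mpo, the neutrophil peroxidase, averaged 464 ± 55.8 CPM, against 72.7 ± 46.3 CPM in controls, and Cd48 averaged 214 ± 38.5 CPM, against 4.86 ± 6.03 CPM. Cebpe, a granulocyte factor, averaged 1.88 ± 0.704 CPM, against 0 counts in controls. In GMP, 1 of 11 fell and none was called higher, with a median of -0.09 (0 to 3 fell with 1 library left out). Elane averaged 3161 ± 438 CPM in AML1-ETO GMP libraries, against 5128 ± 472 CPM in controls (-0.68 ± 0.12, adjusted edgeR p of 0.0202), a call lost without control GMP replicate 1 (0.0823), 3 (0.0806) or 4 (0.0788).

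Of the plakoglobin and catenin list, 1 of 15 tested in LT-HSC rose, Ctnna1 (226 ± 16.2 CPM in AML1-ETO against 112 ± 20.2 CPM in control libraries), and 1 fell, Pkp4 (8.55 ± 2.25 CPM against 34.2 ± 7.39 CPM), with a median of 0.37, and neither was called without AML1-ETO LT-HSC replicate 2. In GMP 0 of 15 were called by edgeR, 1 had an unadjusted p under 0.05 and DESeq2 called 0. Ctnnb1, which encodes beta-catenin, had log2 fold changes of 0.08 ± 0.17 in LT-HSC and 0.02 ± 0.08 in GMP (adjusted edgeR p of 0.855 and 0.916). Of the ID and E protein list, 0 of 4 tested were called in either cell type, with 1 at an unadjusted p under 0.05 and 1 called by DESeq2 in each. Id3 had 2.90 ± 1.31 in LT-HSC and 3.89 ± 1.08 in GMP, with adjusted edgeR p-values of 0.208 and 0.0640. Of the RASSF and MST kinase list, 0 of 17 in LT-HSC and 0 of 15 in GMP were called, with 5 and 0 at an unadjusted p under 0.05 and 3 and 0 called by DESeq2. Of the POU list, 3 genes were tested in LT-HSC and 2 in GMP, with 0 called by edgeR or DESeq2 and 0 at an unadjusted p under 0.05.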

How the data were processed

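The deposited table, made by the authors, held unnormalised whole-number counts for 54532 gene lines in 14 columns, matched to samples by their descriptions. HISAT2 2.0.5, featureCounts 1.5.0-p3 and mm10 are named per the submitters' processing notes, without roles. The annotation release was not given in the sources used here, nor was the strand setting. Per the labels' protocols, the libraries came from SMART-Seq v4 and SMARTer stranded kits, with no word on which sample used which. Replicates differed by a chi-square per gene of 9.20 to 216, beyond counting noise. It was 9.20 to 15.9 in control GMP, 106 to 113 in AML1-ETO GMP, 35 to 75.7 in AML1-ETO LT-HSC and 86.6 to 216 in control LT-HSC. Each fit used 1 spread per gene for all its groups. The SEs and p-values, in GMP above all, do not allow for this difference in spread.

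Counts were filtered with filterByExpr, TMM-scaled and tested two-sided with edgeR 4.0.16 (glmQLFit and glmQLFTest, limma 3.58.1, R 4.3.3), with p-values adjusted after Benjamini-Hochberg over every tested gene and calls at an adjusted p under 0.05. Each genotype comparison used the 7 libraries of its cell type, and the difference and cell type comparisons used 1 fit of all 14. DESeq2 1.42.0, upper-quartile scaling, DESeq2's size factors (RLE), no filter, a fit of all or of 7 libraries, a replicate block and leaving out each library were tried. Levels under upper-quartile and RLE scaling, and list genes with each library left out, were added after the data were seen. Python 3.11.15 with pandas 2.3.3, numpy 2.4.6 and matplotlib 3.10.9 served for tables and plots. The fit was tested on simulated data with less spread than these libraries, so that test does not show how it does at their spread.

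Coordinates came from GENCODE M21 by symbol, which matched 53749 of the symbols (98.6%), and promoters from RefSeq on GRCm38.p6. Named genes were the members, Runx1 and Runx1t1, the 2 genes most like each member, and up to 4 called genes of each list with the smallest p, or all where 5 or fewer were called. Id3, Ctnnb1, Plcg2 and further called genes of a list are named outside that rule and were chosen after their values were seen. The members and lists were chosen with earlier results of these data known. Replicate numbers were not taken as pairs, and whether LT-HSC and GMP libraries share mice is not known here.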

Additional observations from a re-analysis of the deposited data

Results flagged for a closer look

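Ubash3b in control GMP replicate 3 was at 17.3 CPM, against 24.4, 25.4 and 24.4 CPM in the other control GMP libraries, a gap larger than Dixon's test allows for 4 samples. It was 1 of 13 groups of 4 tested for the 7 genes, and chance flags about 1 in 20 groups.

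For Plcg1 the AML1-ETO effect in GMP minus that in LT-HSC was -1.96 on the log2 scale, and for Rassf2 it was -1.85, and the direct test of the difference called both. The adjusted p of Plcg1, from edgeR or DESeq2, stayed between 0.000679 and 0.0475 over its 19 alternatives. In the edgeR fits with 1 library left out it was 0.00212 to 0.0475.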

How the results depend on the processing

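Of 426 alternative values of the members' fold changes, 369 kept direction and side of the threshold, 33 lost the call, 7 gained one and 17 changed sign. The cause of these shifts was not tested. In LT-HSC, 1791 genes were called, against 2795 with DESeq2, 525 with the replicate block, 3166 in the fit of all 14 libraries and 334 to 2376 with 1 library left out, and 2 to 3 members (Jup had an adjusted p of 0.0508 with the block). In GMP, 1319 genes were called, against 2308 with DESeq2, 816 without the filter, 112 with the block, 458 in the fit of all libraries and 131 to 3514 with 1 left out. There the members called were 3, against 0 with the block (3 at an unadjusted edgeR p under 0.05, with adjusted p-values of 0.0505 for Jup, 0.0625 for Id1 and 0.213 for Id2), 1 in the fit of all libraries and 2 to 4 with 1 left out. For the difference, 1021 genes were called, against 1781 with DESeq2, 568 with the block and 471 to 1477 with 1 left out, with 2 members each time. In control mice the cell types differed in 3949 genes (2660 to 4584 with 1 left out), with 0 to 3 members. In AML1-ETO mice they differed in 3505 (2092 to 3298), with 2 to 3 members. The share of calls that were higher was 61.8% in LT-HSC, against 51.7% with upper-quartile scaling and 47.2% with DESeq2. In control mice it was 56.9%, against 47.4% with upper-quartile scaling, 44.9% with DESeq2's size factors in edgeR and 40.6% with DESeq2. Over all genes, the median fold change (log2) moved to -0.10 in LT-HSC with upper-quartile scaling, against 0.03, and to -0.12 between the control cell types with DESeq2's size factors, against 0.02. Sign changes were, with 1 library left out, for Plcg1 in GMP (-0.21 to 0.32, against 0.06 with all libraries, -0.01 without AML1-ETO replicate 2 and -0.02 without control replicate 3) and for Ubash3b in GMP (-0.12 to 1.18). For the difference, Jup had -0.10 with the block and -0.31 to 0.43 with 1 library left out (-0.02, -0.07 and -0.05 among them), Id2 had -0.26 to 1.45 and Ubash3b -0.48 to 0.81. Between the cell types of AML1-ETO mice, Ubash3b had -0.07 with upper-quartile scaling, -0.06 with DESeq2's size factors in edgeR, -0.06 with DESeq2, -0.15 with the block and -0.90 to 0.40 with 1 left out (-0.07 without AML1-ETO LT-HSC replicate 2). Jup in control GMP was at 5.73 CPM with DESeq2's size factors, against 6.12 CPM. Same-numbered libraries had correlated deviations of -0.0765 to -0.0482 in LT-HSC, 0.0141 to 0.0359 in GMP, -0.0387 to 0.0181 between the control cell types and 0.091 to 0.161 between the AML1-ETO ones, so the numbers were not taken as pairs. A library deviated most like its own number in 0 of 6, 4 of 6, 1 of 8 and 6 of 6 cases, a hint from the data and not the design. Pou4f1 held too few counts to be tested.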
